A study of Homo sapiens with 43 samples.

Results

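Described here are 30 genes of sterol and fatty acid synthesis, chosen by name as a pathway with earlier results of these data known. They were matched to the deposited tables by Ensembl gene identifier, out of 58780 Ensembl rows per table. All 30 were found. They are 7 early steps of sterol synthesis, from acetyl-CoA to farnesyl diphosphate (ACAT2, HMGCS1, MVK, PMVK, MVD, IDI1 and FDPS), and 11 late steps, from squalene to cholesterol (FDFT1, SQLE, LSS, CYP51A1, TM7SF2, MSMO1, NSDHL, HSD17B7, EBP, SC5D and DHCR7). Another 4 belong to the SREBP system that controls the pathway (SREBF1, SREBF2, SCAP and INSIG1), 1 is a sterol carrier (STARD4), and 7 make or modify fatty acids and glycerolipids (ACACA, FASN, ELOVL6, SCD, FADS1, FADS2 and LPIN1).

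RNA-seq was done on 43 libraries in 22 groups: 39 libraries of GM12878, an Epstein-Barr virus transformed B-lymphoblastoid line grown in suspension, and 4 of HepG2, a hepatocellular carcinoma line. In HepG2, DMSO was compared with 10 µM BRM014 after 24 h (2 libraries each). BRM014 inhibits the ATPases SMARCA4 and SMARCA2 of the BAF chromatin remodelling complexes. In a pretreatment experiment, GM12878 was held for 30 min with either DMSO or 10 µM BRM014. The cells were then given vehicle, 100 ng/mL IFNg (interferon gamma) or 500 nM Dex (dexamethasone, a glucocorticoid) for 1 h or 6 h. This made 12 groups of 2 libraries, and their times count from the vehicle or stimulus, after the 30 min of pretreatment. In a stimulus panel without BRM014, GM12878 cells received for 6 h either DMSO, PBS, 25 ng/mL TNF, 10 ng/mL LPS (lipopolysaccharide), 50 U/mL IL2, 100 ng/mL IFNg or 500 nM Dex (2 libraries each), or 500 nM Dox (doxorubicin, 1 library). No group carries a genetic change, each line is a single line, and the lines were grown in different media with different shares of serum. The labels do not say that the 2 libraries of a group came from separate cultures, so the p-values measure only the spread between these libraries, which may be technical.

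Cholesterol is built from acetyl-CoA through mevalonate and farnesyl diphosphate to squalene, which is cyclised to lanosterol and trimmed to cholesterol. The SREBP transcription factors are held in the endoplasmic reticulum by SCAP and the INSIG proteins while sterols are plentiful; when sterols fall, SCAP escorts them to the Golgi, where they are cut, and the released part enters the nucleus. SREBF2 encodes the form best known for sterol synthesis and uptake genes, and SREBF1 the form best known for fatty acid genes. The liver makes much of the body's cholesterol and fatty acids, while B-lymphoblastoid cells make them mainly for new membrane.

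Promoter sequence was looked at first, since many of these genes changed together in HepG2. Of the 30 genes, 26 were matched by symbol to the RefSeq promoter table (build GRCh38.p14, 250 bases before to 50 after the start) and used; ACAT2, FDFT1, SQLE and FASN were not. The 5 stretches below were picked for the results of their genes. EBP and MSMO1 had the largest falls among the sterol enzymes in HepG2. HMGCS1 was raised with BRM014 in the 1 h groups of GM12878. PMVK was the 1 gene that rose in HepG2, and INSIG1 had no counts in HepG2. Each is written 5′ to 3′ on the gene's strand, ends before the first annotated exon, and has every CCAAT box (CCAAT, or ATTGG where the box lies on the other strand) in capitals.
EBP (chrX:48521605-48521794, plus strand): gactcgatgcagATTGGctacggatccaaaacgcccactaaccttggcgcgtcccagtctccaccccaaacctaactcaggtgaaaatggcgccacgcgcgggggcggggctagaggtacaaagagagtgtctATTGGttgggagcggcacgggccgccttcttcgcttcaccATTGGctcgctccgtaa
MSMO1 (chr4:165327472-165327651, plus strand): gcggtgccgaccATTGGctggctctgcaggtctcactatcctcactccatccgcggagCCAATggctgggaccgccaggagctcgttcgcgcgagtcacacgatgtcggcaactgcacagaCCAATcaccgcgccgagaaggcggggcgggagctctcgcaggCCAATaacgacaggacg
HMGCS1 (chr5:43313513-43313579, minus strand): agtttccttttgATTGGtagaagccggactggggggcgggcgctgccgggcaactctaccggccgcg
PMVK (chr1:154936720-154936839, minus strand): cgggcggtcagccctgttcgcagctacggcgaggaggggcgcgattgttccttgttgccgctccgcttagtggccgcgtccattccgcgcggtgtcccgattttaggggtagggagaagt
INSIG1 (chr7:155297696-155297775, plus strand): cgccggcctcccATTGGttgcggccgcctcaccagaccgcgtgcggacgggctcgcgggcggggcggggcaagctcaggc

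The EBP stretch holds 3 CCAAT boxes and the MSMO1 stretch 4. The HMGCS1 and INSIG1 stretches hold 1 each, and the PMVK stretch is printed with none. Counting both strands over the whole 300-base windows, CCAAT occurred in at least 1 listed promoter of 19 of the 26 genes. These included 5 of 6 early steps, 8 of 9 late steps and 3 of 6 fatty acid genes. CCAAT occurred in 34.6% of all 35116 promoters of the table, each counted singly. A gene with several listed promoters has more than 1 chance of a match, so the gene counts and promoter shares here are not like for like. The GC box GGGCGG occurred in 25 of the 26, against 45.0% of all promoters. The E-box CACGTG occurred in LSS, SC5D, SCAP and INSIG1, against 7.26% of all promoters. The sterol regulatory element core TCACNCCAC occurred in SREBF2 alone, against 1.13% of all promoters. Matches that overlap were all counted. A match describes letters in this window and is not a measured binding site.

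The GM12878 libraries held 12.9 to 22.9 M counts and the HepG2 libraries 3.06 to 19.9 M, the lowest being BRM014 replicate 2. Levels below are CPM (counts scaled to library size, with TMM, edgeR's trimmed-mean library factor), unless TPM is named (deposited values scaled to library size and gene length). A gene was called at an adjusted p under 0.05 (edgeR quasi-likelihood test, Benjamini-Hochberg over all genes tested), and differences are log2 fold changes ± SE. HepG2 expressed 7 of 7 hepatocyte markers over 1 TPM and GM12878 6 of 6 B cell markers, while the 7 hepatocyte markers summed to at most 1.58 TPM in any GM12878 library. SMARCA4 RNA rose with BRM014 in HepG2 (0.56 ± 0.09) and in GM12878 at 6 h (0.29 ± 0.05), and SMARCA2 RNA fell in both (-0.58 ± 0.13 and -0.44 ± 0.05), so the RNA of the inhibited enzymes is itself among the genes that changed.

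Without inhibitor, the 2 lines ran the pathway at different levels per length. In HepG2 with DMSO, SCD, which puts the double bond into stearoyl-CoA, was highest at 325 ± 33.7 TPM (SD, n = 2), followed by the squalene synthase FDFT1 (225 ± 8.90) and the farnesyl diphosphate synthase FDPS (204 ± 21.0), whose libraries overlapped each other but not those of SCD. In GM12878 with DMSO and vehicle at 6 h, FDPS was highest at 244 ± 9.51 TPM (SD, n = 2), followed by FDFT1 (155 ± 1.44) and SREBF2 (111 ± 4.58), with no overlap between these neighbours. The fatty acid genes differed most between the lines.

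**Figure D1:**
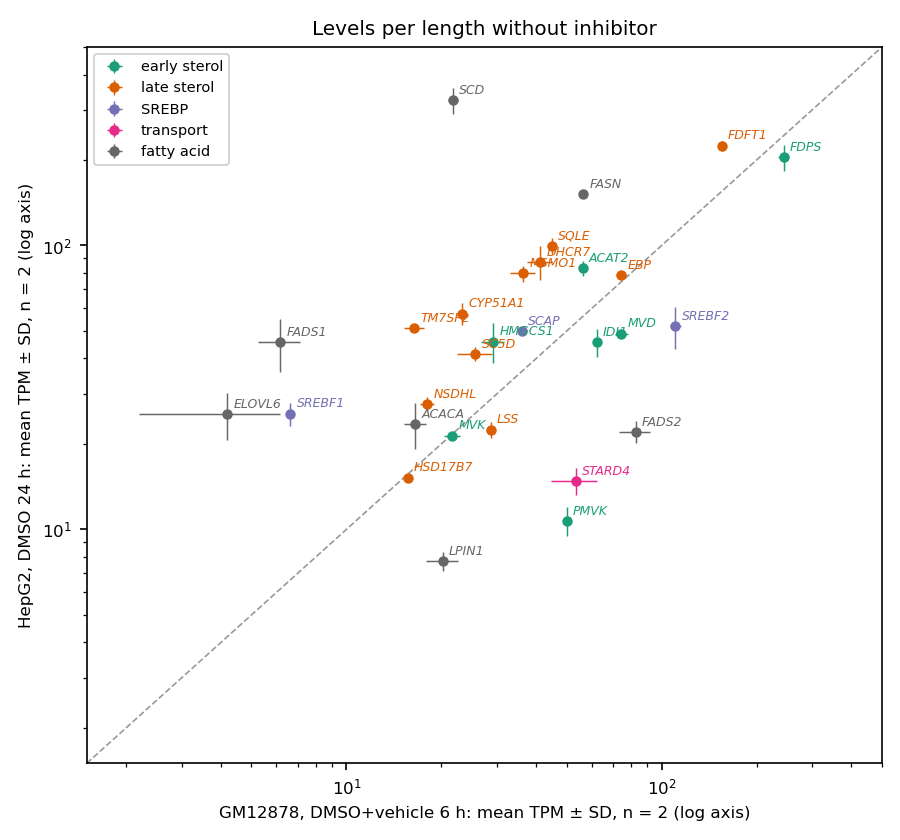
Mean TPM ± SD (n = 2) of each gene in GM12878 (horizontal, DMSO and vehicle, 6 h) and HepG2 (vertical, DMSO, 24 h), both log axes, coloured by role; the dashed line marks equal levels. SCD (325 against 21.8 TPM) lies farthest above the line and PMVK (10.7 against 49.9 TPM) farthest below it; INSIG1 is listed at 0 in HepG2 and is not drawn.

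Of the 29 genes with counts in both lines, 18 had a higher mean TPM in HepG2. Among them were 9 of 11 late steps but 2 of 7 early steps. The ratio of HepG2 to GM12878 was 14.9 for SCD, 7.39 for the polyunsaturated fatty acid desaturase FADS1, 6.08 for the chain elongase ELOVL6, 3.85 for SREBF1 and 2.69 for the fatty acid synthase FASN. The ratio of GM12878 to HepG2 was 4.66 for the phosphomevalonate kinase PMVK, 3.74 for FADS2, 3.60 for STARD4, 2.62 for LPIN1 and 2.13 for SREBF2. FADS1 and FADS2, neighbours in the same fatty acid pathway, thus lay on opposite sides. The lines were not grown or timed alike, and these ratios carry no test.

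INSIG1 was listed at 0 counts in all 4 HepG2 libraries, while the same gene stood at 57.5 to 137 CPM in the 39 GM12878 libraries. A total of 3 counts over the 4 HepG2 libraries would be 0.0603 CPM. Its paralog INSIG2 had 5916 counts over those libraries. On chromosome 7, the coding genes PAXIP1 and RBM33, picked by name and not as the nearest genes of INSIG1, had 1499 and 3624 counts. The cause of the 0 was not tested.

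**Figure D2:**
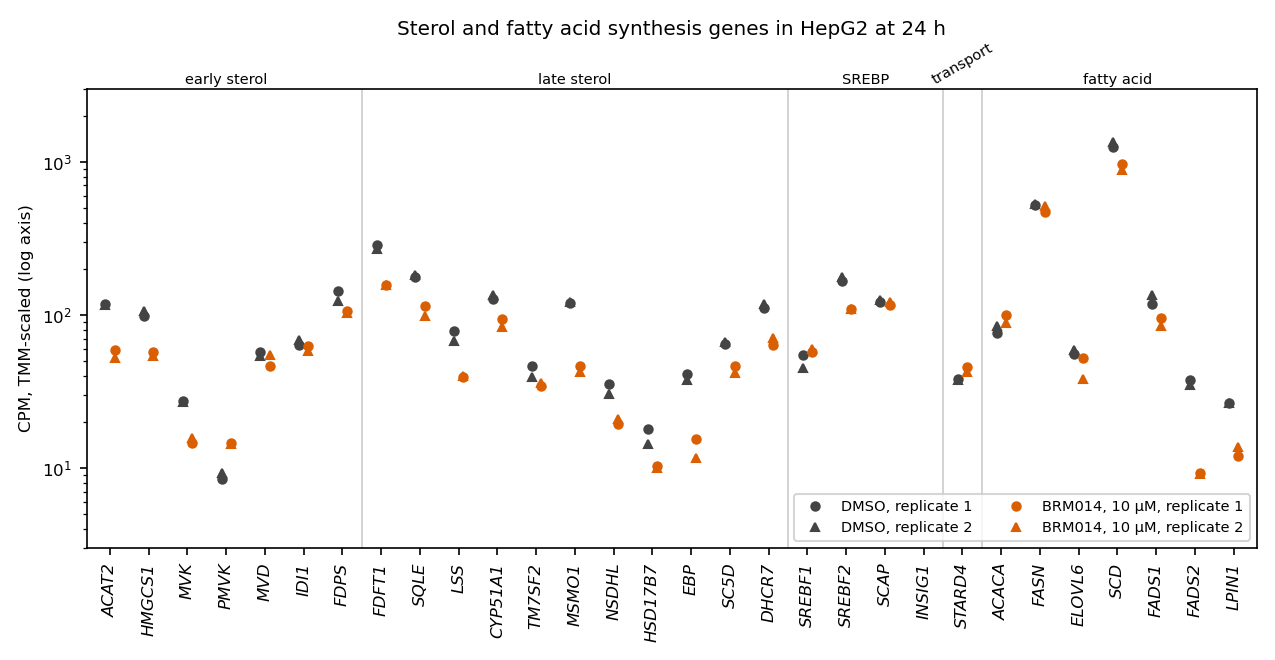
CPM (log axis) of each gene in the 4 HepG2 libraries at 24 h, grouped by role; dark grey points are DMSO, orange points 10 µM BRM014, circles replicate 1 and triangles replicate 2. Every late step lies lower in both BRM014 libraries than in both DMSO libraries, while PMVK lies higher; INSIG1, at 0, is not drawn.

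The HepG2 libraries compare 24 h of BAF ATPase inhibition with DMSO in a liver-derived line. Of the 29 genes tested, 19 fell and 1 rose, against 22.8% of all 13349 genes tested that were lower and 19.3% that were higher. In 24 of the 29 both BRM014 libraries lay below both DMSO libraries, against 36.5% of all genes. The median log2 fold change was -0.55 over the 29 genes and -0.01 over all genes. Since the genes were chosen with earlier results of these data known, these comparisons describe them and are no independent test. The number higher was 2 without the shallow BRM014 replicate 2 (19 lower) or without either DMSO library, and 0 without BRM014 replicate 1. Of the 19 that fell, 17 kept their call under every alternative tried; FDPS and HSD17B7 did not.

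The early steps were mixed: 4 of 7 fell and 1 rose, with a median of -0.33. With FDFT1, which follows them, counted as early, that median was -0.57, beside -0.73 for the remaining late steps. The acetyl-CoA acetyltransferase ACAT2 stood at 118 and 116 CPM with DMSO and at 58.6 and 52.4 with BRM014 (-1.05 ± 0.10, adjusted p = 3.34e-07). HMGCS1, the HMG-CoA synthase, stood at 99.1 and 107 CPM with DMSO and at 57.7 and 54.0 with BRM014 (-0.87 ± 0.10, adjusted p = 3.64e-06). The mevalonate kinase MVK went from 27.3 and 27.0 to 14.5 and 15.7 CPM (-0.87 ± 0.15). In these 3 genes both treated libraries were close to each other and well under both controls.

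PMVK, which adds the second phosphate to mevalonate right after MVK, moved the other way, from 8.45 and 9.34 CPM with DMSO to 14.6 and 14.4 with BRM014 (0.70 ± 0.18, adjusted p = 0.00469). Per length it was the lowest sterol enzyme in HepG2 (10.7 ± 1.27 TPM), and it was no longer called without BRM014 replicate 1 (adjusted p = 0.0641). FDPS fell from 142 and 122 to 106 and 104 CPM (-0.33 ± 0.10, adjusted p = 0.0148) and was not called without DMSO replicate 1 (adjusted p = 0.157) or BRM014 replicate 1 (adjusted p = 0.0526). The mevalonate diphosphate decarboxylase MVD (-0.17 ± 0.12) and the isopentenyl diphosphate isomerase IDI1 (-0.11 ± 0.11) were not called.

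The late steps moved as a block: 10 of 11 fell, all 11 were lower in both treated libraries, and the median was -0.73. The largest falls were in 2 enzymes that trim and rearrange the sterol rings. EBP, the sterol isomerase, stood at 41.0 and 37.3 CPM with DMSO and at 15.4 and 11.6 with BRM014 (-1.44 ± 0.15, adjusted p = 7.95e-07). MSMO1, the methylsterol oxidase, stood at 119 and 121 CPM with DMSO and at 46.1 and 42.4 with BRM014 (-1.42 ± 0.10, adjusted p = 9.32e-09).

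The step that commits carbon to sterols also fell: the squalene synthase FDFT1 went from 286 and 269 CPM to 157 and 158 (-0.82 ± 0.09). The squalene epoxidase SQLE went from 178 and 183 to 115 and 98.5 CPM (-0.73 ± 0.10), and the lanosterol synthase LSS from 78.7 and 67.4 to 39.3 and 40.2 CPM (-0.88 ± 0.12). In none of these 3 genes did a treated library reach a control. DHCR7, which makes cholesterol from its last precursor, fell from 110.4 and 118 to 63.7 and 70.6 CPM (-0.79 ± 0.10). NSDHL (-0.72 ± 0.14), the desaturase SC5D (-0.55 ± 0.11), the lanosterol demethylase CYP51A1 (-0.54 ± 0.10) and the reductase HSD17B7 (-0.65 ± 0.18) fell as well. HSD17B7 had 14.3 to 18.1 CPM with DMSO and lost its call with DESeq2 (adjusted p = 0.0709) and without replicate 1 of DMSO or of BRM014 (adjusted p = 0.0779 and 0.0702). The sterol reductase TM7SF2 was at 46.5 and 39.4 CPM with DMSO and 34.4 and 35.8 with BRM014, and was not called (-0.30 ± 0.13, adjusted p = 0.0761), though it was without DMSO replicate 2 (adjusted p = 0.0280).

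**Figure D3:**
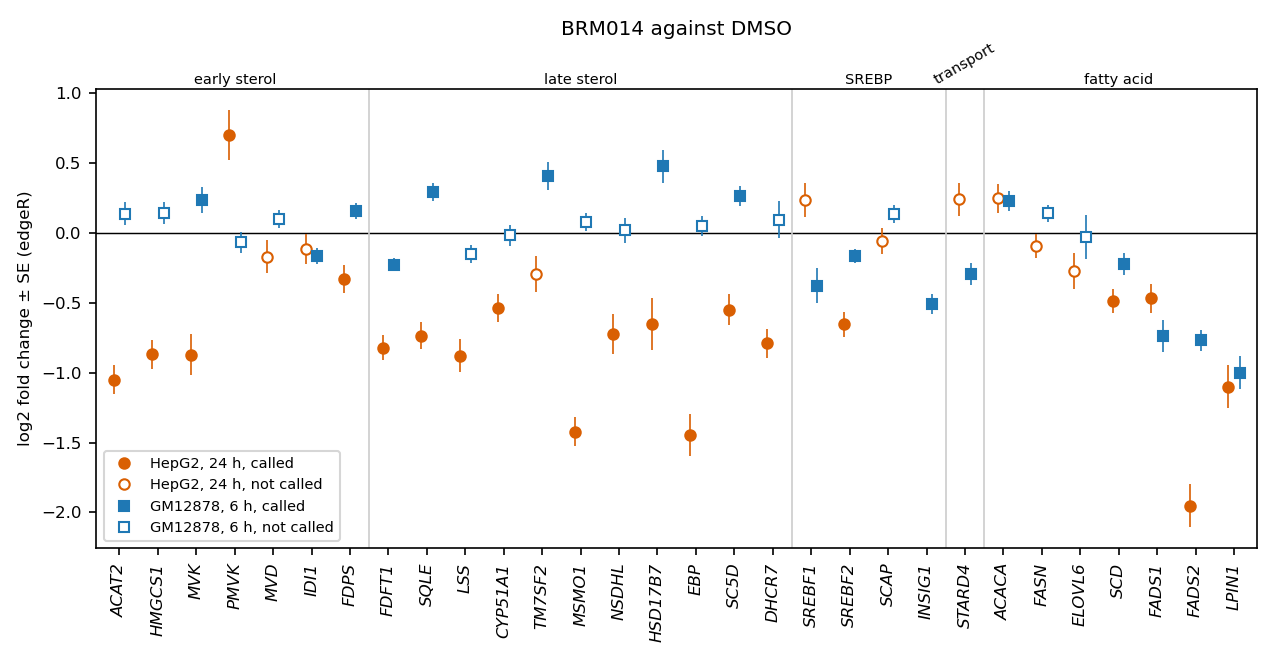
Log2 fold change ± SE of BRM014 against DMSO for each gene, grouped by role, in HepG2 at 24 h (orange circles) and in GM12878 at 6 h with vehicle (blue squares); filled symbols passed the adjusted p of 0.05. The late steps lie between -1.44 and -0.30 in HepG2 and between -0.23 and 0.48 in GM12878, while FADS1, FADS2 and LPIN1 lie under -0.4 in both.

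Among the regulators, SREBF2 fell from 165 and 177 to 109 and 109 CPM (-0.65 ± 0.09, adjusted p = 2.29e-05). SREBF1 (0.24 ± 0.12, adjusted p = 0.136) and the escort gene SCAP (-0.06 ± 0.09) were not called. SREBF1 stood at 54.9 and 44.7 CPM with DMSO and 57.1 and 60.3 with BRM014, and was called higher without DMSO replicate 1 (adjusted p = 0.0382). The sterol carrier STARD4 was at 37.9 and 37.3 CPM with DMSO and 45.5 and 42.4 with BRM014, and was not called (0.24 ± 0.12). SREBF2 is therefore the 1 regulator of the 3 tested whose RNA passed the test.

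Of the 7 fatty acid genes, 4 fell. FADS2, a desaturase of polyunsaturated fatty acids, had the largest fall of all 29, from 37.3 and 34.7 CPM to 9.33 and 9.10 (-1.95 ± 0.15, adjusted p = 2.26e-08). LPIN1, the phosphatidate phosphatase that supplies diacylglycerol, went from 26.6 and 26.7 to 11.9 and 13.8 CPM (-1.10 ± 0.15, adjusted p = 2.11e-05). SCD went from 1244 and 1348 to 968 and 878 CPM (-0.49 ± 0.09), and FADS1 from 118 and 134 to 95.5 and 84.7 CPM (-0.47 ± 0.10). The 2 enzymes that build the chain itself were not called: the acetyl-CoA carboxylase ACACA (0.25 ± 0.10, adjusted p = 0.0674) and FASN (-0.09 ± 0.09), nor was ELOVL6 (-0.27 ± 0.13). ACACA was called higher without replicate 2 of BRM014 or of DMSO (adjusted p = 0.0341 and 0.0417) and ELOVL6 lower without BRM014 replicate 1 (adjusted p = 0.00804). FADS1 and FADS2 overlap on opposite strands of chromosome 11 (61799627 to 61829318 and 61792980 to 61867354), and the sources name no strand setting for the counts.

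The summed level of the 7 hepatocyte markers was 20346 to 22196 TPM with DMSO and 12598 to 13645 with BRM014, with none at 0. TTR (-4.60 ± 0.13), APOA1 (-2.25 ± 0.10), HNF4A (-1.62 ± 0.09), AFP, TF and ALB (-0.45 ± 0.09) fell, so these secretory and identity genes of the liver moved in the same libraries. The remaining marker, FGB, differed little, at a mean of 387 TPM with DMSO and 348 with BRM014. The 4 fibroblast markers summed to 2.03 to 3.72 TPM with DMSO and 22.7 to 26.5 with BRM014, nearly all COL1A1, with COL1A2 and DCN at 0 in both groups. The 4 myeloid markers summed to 2740 to 2990 TPM with DMSO and 1289 to 1338 with BRM014, nearly all LYZ, with FCN1 at 0. The 6 B cell markers summed to 195 to 200.5 TPM with DMSO and 70.4 to 78.6 with BRM014, nearly all CD74, with MS4A1 and PAX5 at 0. The part of these shifts in the lower sterol genes was not tested. In bulk RNA, fewer cells of a type and less RNA per cell cannot be told apart.

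Lists of neighbouring pathways had more lower than higher calls, apart from the isoprenoid branch. Over all genes tested, 22.8% were lower and 19.3% higher. Of 16 other genes of SREBP processing and sterol handling, 7 were lower, led by the lysosomal cholesterol exporter NPC1 (-1.29 ± 0.10), its regulator TMEM97 (-0.95 ± 0.11), NPC2 (-0.83 ± 0.11) and the lysosomal lipase LIPA (-0.70 ± 0.11). Of 15 tested genes of fatty acid supply and elongation, 8 were lower and 1 higher; the glycerol-phosphate acyltransferase GPAM fell by 4.72, the acyl-CoA synthetase ACSL3 by 0.90, the acetyl-CoA synthetase ACSS2 by 0.97 and TECR by 0.83 on the log2 scale. Of 8 tested LXR targets and efflux genes, 5 were lower, among them the cholesterol exporter ABCA1 (-1.86 ± 0.13) and CYP27A1 (-1.53 ± 0.10). Of 13 genes of fatty acid oxidation, 7 were lower and 1 higher, led by PPARGC1A (-2.43 ± 0.15) and the carnitine palmitoyltransferase CPT1A (-1.70 ± 0.14). Of 10 genes of the isoprenoid branch, which leaves the pathway at farnesyl diphosphate, 1 was lower and 2 higher.

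In GM12878, BRM014 with vehicle for 6 h gave another picture. Of the 30 genes, 7 rose and 10 fell, against 18.4% and 20.1% of all 15183 genes tested, and the median was 0.04 against 0.01 over all genes. The calls rest partly on single libraries: 3 were higher without BRM014 replicate 2, and 6 were lower without BRM014 replicate 1. The calls that held under every alternative were 3 higher (SQLE, TM7SF2 and HSD17B7) and 5 lower (FDFT1, INSIG1, FADS1, FADS2 and LPIN1).

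The early steps moved little. IDI1 was at 91.2 and 96.1 CPM with DMSO and 84.8 and 82.8 with BRM014 (-0.16 ± 0.06, adjusted p = 0.0243). MVK (0.24 ± 0.09, adjusted p = 0.0481) and FDPS (0.16 ± 0.06, adjusted p = 0.0352) rose, and both lost the call with DESeq2 (adjusted p = 0.122 and 0.0544). ACAT2 (0.14 ± 0.08), HMGCS1 (0.14 ± 0.08), PMVK (-0.07 ± 0.08) and MVD (0.10 ± 0.06) were not called. The early step with the largest difference was MVK.

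The late steps diverged from each other. FDFT1 fell from 226 and 215 to 188 and 189 CPM (-0.23 ± 0.05, adjusted p = 3.44e-04). SQLE, the next enzyme, rose from 91.2 and 90.9 to 110.3 and 113 CPM (0.30 ± 0.07, adjusted p = 5.72e-04). HSD17B7 rose from 16.4 and 15.6 to 22.8 and 21.8 CPM (0.48 ± 0.12, adjusted p = 0.00160). TM7SF2 rose from 15.7 and 14.7 to 20.8 and 19.4 CPM (0.41 ± 0.10, adjusted p = 0.00181) and SC5D from 39.3 and 43.8 to 48.3 and 52.0 CPM (0.27 ± 0.07). The 2 late steps with the largest falls in HepG2 were not called here: EBP was at 39.5 and 36.7 CPM with DMSO and 40.9 and 38.0 with BRM014 (0.05 ± 0.07), and MSMO1 at 54.2 and 59.3 against 59.1 and 61.0 (0.08 ± 0.07). TM7SF2 shares its strand with the overlapping gene VPS51, and HSD17B7 has 2 named pseudogenes, so their counts are less certain. The same holds in both lines for EBP, CYP51A1 and FADS2, which each overlap at least 1 coding gene on the same strand. It also holds for FDPS (8 named pseudogenes), IDI1 and CYP51A1 (3 each) and SCD (1).

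The regulators and fatty acid genes carried most of the falls. INSIG1, the brake on SREBP release, fell from 100.1 and 103 to 66.9 and 75.5 CPM (-0.51 ± 0.07, adjusted p = 9.96e-07). LPIN1 fell from 63.2 and 72.8 to 34.5 and 33.8 CPM (-1.0 ± 0.12, adjusted p = 2.69e-06). FADS2 fell from 161 and 132 to 83.4 and 88.3 CPM (-0.77 ± 0.08, adjusted p = 1.08e-08), and FADS1 from 15.5 and 17.2 to 10.3 and 9.46 CPM (-0.73 ± 0.11, adjusted p = 5.26e-06). SREBF1 (-0.38 ± 0.13), SREBF2 (-0.16 ± 0.05), STARD4 (-0.29 ± 0.08) and SCD (-0.22 ± 0.08) fell by less, and each lost its call without at least 1 library. ACACA rose (0.23 ± 0.07, adjusted p = 0.0117), while FASN (0.14 ± 0.06) and ELOVL6 (-0.03 ± 0.16) were not called. The B cell markers CD79B (-1.78 ± 0.09), MS4A1 (-1.30 ± 0.07) and CD79A (-0.68 ± 0.06) fell in the same libraries, and PAX5 (-0.07 ± 0.05) and CD74 (0.11 ± 0.06) were not called. The summed level of the 6 B cell markers was 10801 to 12238 TPM with DMSO and 12515 to 12578 with BRM014. The part of this shift in the lipid genes was not tested.

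The neighbouring lists were mixed in GM12878, where 18.4% of all genes tested were higher and 20.1% lower. Of 16 other sterol handling genes, 4 were higher, among them LIPA (0.39 ± 0.06), and 2 lower. Of 16 fatty acid supply genes, 3 were higher, among them the elongase ELOVL1 (0.47 ± 0.07), and 6 lower, among them ACSL1 (-0.72 ± 0.06), AACS (-0.53 ± 0.07) and AGPAT2 (-0.83 ± 0.12). Of 6 tested LXR targets, 3 were lower: ABCG1 (-0.93 ± 0.21), ABCA1 and MYLIP (-0.40 ± 0.10). Of 10 isoprenoid genes, 5 were higher, led by RABGGTA (0.71 ± 0.08) and PDSS2 (0.58 ± 0.09), and 1 lower. Of 12 tested oxidation genes, 3 were higher and 1 lower (ACADM, -0.35 ± 0.06).

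Averaging BRM014 against DMSO over the vehicle, IFNg and Dex arms at 6 h put 6 libraries on each side. By this mean 11 genes rose and 11 fell, against 27.8% and 28.7% of all genes. In 3 of the 30 all 6 treated libraries lay above all 6 controls (TM7SF2, HSD17B7 and ACACA), against 12.4% of all genes. In 6 they all lay below (FDFT1, SREBF1, SREBF2, INSIG1, FADS1 and FADS2), against 12.5%. Of the 6 DMSO libraries, replicate 1 with IFNg held the highest value of the 24 libraries for 10 of the 30 genes, with no share over all genes counted. Without it 13 were higher and 11 lower.

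FADS2 ranged from 128 over a median of 133 to 161 CPM in the 6 DMSO libraries, and from 76.9 over 82.9 to 92.3 CPM in the 6 BRM014 libraries (-0.71 ± 0.04, adjusted p = 5.48e-13). FADS1 ranged from 11.8 over 16.4 to 19.9 CPM with DMSO and from 8.34 over 9.26 to 10.4 CPM with BRM014 (-0.77 ± 0.07). INSIG1 ranged from 79.6 over 97.8 to 107 CPM with DMSO and from 57.5 over 66.1 to 75.5 CPM with BRM014 (-0.49 ± 0.04). The ranges of these 3 genes did not meet. LPIN1 fell by the mean of the arms (-0.93 ± 0.07), but its ranges met (48.4 to 124 CPM with DMSO, 33.8 to 61.8 with BRM014), the Dex libraries being the highest on each side. LSS, not called with vehicle alone, fell by this mean (-0.25 ± 0.04, adjusted p = 9.94e-07). In the opposite direction, HSD17B7 rose from a median of 16.0 to 22.6 CPM (0.54 ± 0.07) and TM7SF2 from 15.0 to 19.8 CPM (0.39 ± 0.06).

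**Figure D4:**
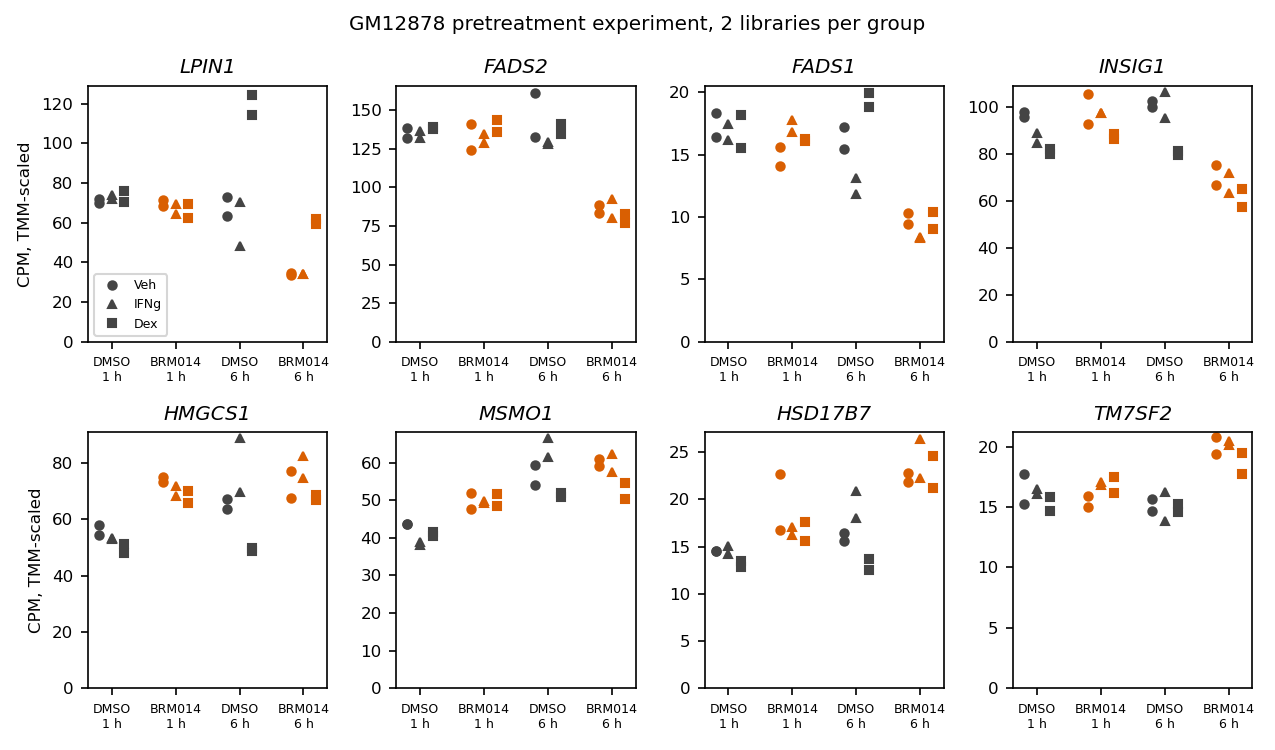
CPM of 8 genes in the 24 GM12878 libraries of the pretreatment experiment, by pretreatment and time; dark grey is DMSO, orange 10 µM BRM014, circles vehicle, triangles IFNg and squares Dex, 2 libraries per group. Within each arm LPIN1, FADS2, FADS1 and INSIG1 lie lower with BRM014 at 6 h, none of them called at 1 h, while HMGCS1 and MSMO1 lie higher with BRM014 at 1 h.

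At 1 h, few of these genes had moved. With vehicle, 1 rose (HMGCS1, 0.40 ± 0.08, adjusted p = 0.00388) and none fell. Of all 15183 genes, 91 rose, and 2.05% were called in either direction. Without DMSO replicate 2 or BRM014 replicate 1, HMGCS1 was not called (0.36 and 0.39). Over the mean of the 3 arms, 4 rose: HMGCS1 (0.42 ± 0.05), MSMO1 (0.28 ± 0.04), HSD17B7 (0.32 ± 0.07) and SQLE (0.15 ± 0.04). By this mean 388 of all 15183 genes rose, and 6.98% were called in either direction. SQLE was not called without replicate 1 of DMSO with vehicle (adjusted p = 0.0726) or replicate 2 of BRM014 with vehicle (adjusted p = 0.0851). HMGCS1 ranged from 48.0 over 53.1 to 57.9 CPM in the 6 DMSO libraries and from 65.9 over 70.9 to 75.1 CPM in the 6 BRM014 libraries. MSMO1 ranged from 38.0 over 41.1 to 43.8 CPM with DMSO and from 47.7 over 49.5 to 52.0 CPM with BRM014. Neither pair of ranges met, nor did those of HSD17B7 (12.8 to 15.0 CPM with DMSO, 15.6 to 22.7 with BRM014). Of all 15183 genes, 249 had all 6 BRM014 libraries above all 6 DMSO libraries.

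The effect of BRM014 itself differed between 6 h and 1 h for 14 of the 30 genes: 2 were higher at 6 h and 12 lower, against 17.2% and 21.0% of all genes. LPIN1 (-0.83 ± 0.09), FADS2 (-0.70 ± 0.06), FADS1 (-0.69 ± 0.09) and INSIG1 (-0.60 ± 0.06) had the largest shifts downward, and TM7SF2 (0.36 ± 0.08) and ACACA (0.32 ± 0.06) shifted upward. HMGCS1 and MSMO1, raised at 1 h, shifted down as well (-0.22 ± 0.07 and -0.28 ± 0.06). For MSMO1 the DMSO and vehicle level had itself risen from 1 h to 6 h (0.38 ± 0.07, adjusted p = 0.00302), the 1 member called in that comparison, against 1.43% of all genes; without either 1 h library or DMSO replicate 2 of 6 h it was not called. The number higher at 6 h was 7 without replicate 1 of DMSO with IFNg at 6 h, and 4 without replicate 1 of BRM014 with vehicle at 1 h or of BRM014 with Dex at 6 h.

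The difference between the lines was tested in 1 fit over the 4 HepG2 libraries and the 4 GM12878 vehicle libraries of 6 h. The response to BRM014 was lower in HepG2 for 17 of the 29 genes with counts in both lines and higher for 3, against 13.2% and 9.44% of all 15902 genes. All 11 late steps were among the 17, with MSMO1 (-1.54 ± 0.14), EBP (-1.50 ± 0.17), HSD17B7 (-1.15 ± 0.20) and SQLE (-1.07 ± 0.14) in front. Of the early steps ACAT2 (-1.22 ± 0.14), MVK (-1.14 ± 0.17), HMGCS1 (-1.05 ± 0.15) and FDPS (-0.52 ± 0.13) were lower.

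PMVK (0.74 ± 0.18), SREBF1 (0.57 ± 0.17) and STARD4 (0.50 ± 0.15) were the 3 higher in HepG2. None of the 3 was called without HepG2 BRM014 replicate 1, and 1 was without either GM12878 BRM014 library. FADS2 fell in both lines and fell further in HepG2 (-1.20 ± 0.17). For LPIN1, SCD and FADS1, which fell in both, no difference was called, although SCD was called without HepG2 BRM014 replicate 1 (-0.46, adjusted p = 0.0226). INSIG1, at 0 in HepG2, has no response there to compare. Line, medium and exposure time changed together here and cannot be told apart.

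Dex was compared with vehicle in both GM12878 experiments. In the DMSO arm of the pretreatment experiment at 6 h, 3 rose and 5 fell, against 8.06% and 7.53% of all genes. In the panel, against the 4 vehicle libraries, 6 rose and 7 fell, against 13.0% and 12.7% of all 15775 genes. These experiments share no library. LPIN1, ELOVL6 and LSS rose in both, which is 100% of the risers of the first and 50% of those of the second. STARD4, HMGCS1, INSIG1 and SCD fell in both, 80% and 57.1% of the fallers; over all genes the shares were 84.8% and 51.4% of risers and 85.4% and 49.1% of fallers.

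STARD4 stood at 118, 122, 115 and 117 CPM in the 4 panel vehicle libraries and at 80.9 and 78.8 with Dex (-0.56 ± 0.05, adjusted p = 6.91e-12). In the pretreatment experiment it went from 123 and 142 to 81.7 and 85.5 CPM (-0.67 ± 0.08). LPIN1 stood at 70.2 to 74.2 CPM in the panel vehicles and at 116 and 118 with Dex (0.68 ± 0.05, adjusted p = 3.32e-14). In the pretreatment experiment it went from 63.2 and 72.8 to 114 and 124 CPM (0.80 ± 0.11). For both genes no Dex library overlapped a vehicle library in either experiment. Upward, the same held for 3077 of all 15775 genes in the panel and 4076 of 15183 in the pretreatment experiment. Downward, it held for 3066 and 3855 genes.

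ELOVL6, the lowest member per length in GM12878 (4.19 ± 1.99 TPM), was at 4.79 to 6.62 CPM in the panel vehicles and reached 11.2 and 10.9 CPM with Dex (0.95 ± 0.13, adjusted p = 3.68e-07). In the pretreatment experiment it went from 6.14 and 7.53 to 10.3 and 11.6 CPM (0.66 ± 0.15). INSIG1 went from 87.9 to 93.6 CPM in the panel vehicles to 66.8 and 66.7 with Dex (-0.44 ± 0.05), and fell by 0.33 ± 0.07 in the pretreatment experiment. HMGCS1 fell by 0.36 ± 0.06 in the panel and 0.41 ± 0.08 in the pretreatment experiment, and SCD by 0.31 ± 0.06 and 0.29 ± 0.08. LSS, in the same pathway as HMGCS1, rose (0.31 ± 0.04 and 0.21 ± 0.06), though in the pretreatment experiment it was not called without DMSO and vehicle replicate 2 or either Dex library. FADS1, DHCR7 and MVD rose in the panel only, where SREBF1, FDPS and SREBF2 fell, and SQLE fell in the pretreatment experiment only; whether the 2 experiments differ for them was not tested. Of these panel calls, MVD was lost with DESeq2 (adjusted p = 0.129), with PBS alone as control (0.222) and without Dex replicate 1 (0.459), DMSO replicate 1 or PBS replicate 2. SREBF2 was lost with DMSO alone (adjusted p = 0.172) and without Dex replicate 2 (0.343) or PBS replicate 1, and FDPS without Dex replicate 1 (0.0953). The 5 falls of the pretreatment experiment were 3 without DMSO and vehicle replicate 1 or DMSO and Dex replicate 1.

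**Figure D5:**
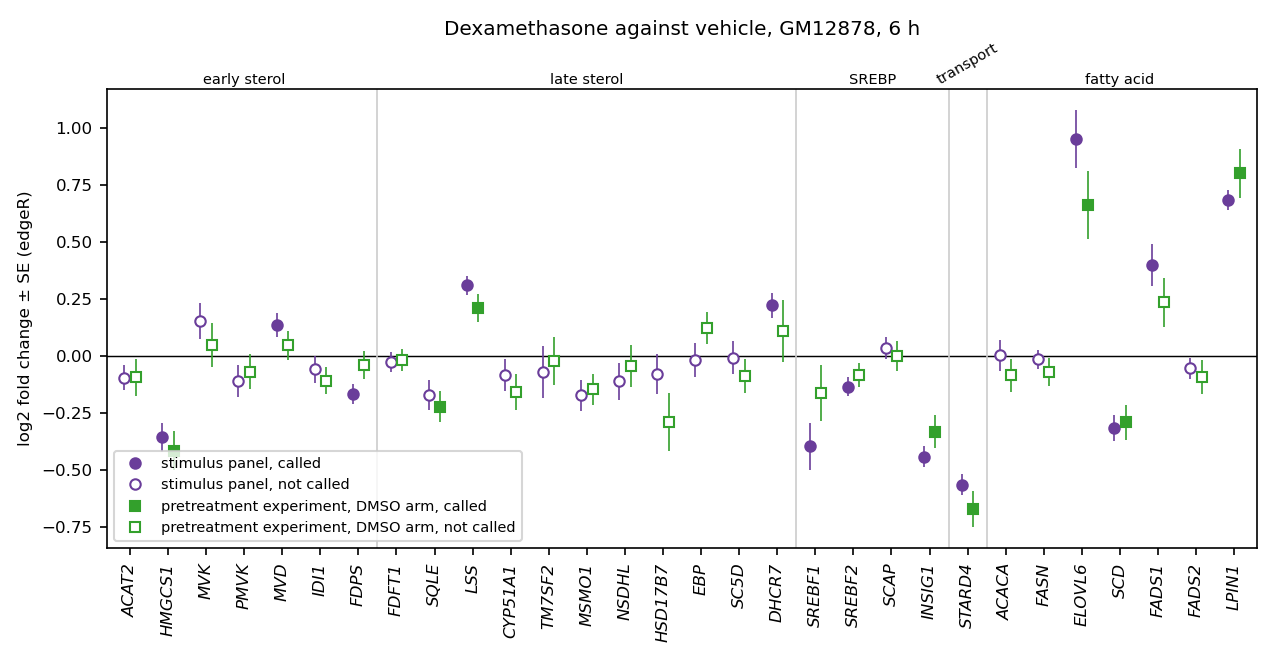
Log2 fold change ± SE of Dex against vehicle at 6 h in GM12878 for each gene, grouped by role, in the stimulus panel (purple circles) and in the DMSO arm of the pretreatment experiment (green squares); filled symbols passed the adjusted p of 0.05. STARD4 lies at -0.56 and -0.67 and LPIN1 at 0.68 and 0.80, on opposite sides of 0 in both experiments.

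With BRM014, the response to Dex was not called different for any of the 30 genes (edgeR), against 2.76% of all genes; 4 higher and 2 lower had an unadjusted p under 0.05, and DESeq2 called 0. The smallest adjusted p was that of IDI1 (0.28 ± 0.08, adjusted p = 0.0538), followed by ELOVL6 (-0.74 ± 0.22, adjusted p = 0.0664). ELOVL6 stood at 10.3 and 11.6 CPM with DMSO and Dex but at 7.38 and 5.52 with BRM014 and Dex, beside 6.87 and 6.69 with BRM014 and vehicle. LPIN1 stood at 61.8 and 59.2 CPM with BRM014 and Dex, against 34.5 and 33.8 with BRM014 and vehicle. STARD4 had the largest difference upward (0.37), at 91.9 and 85.0 CPM with BRM014 and Dex, against 108 and 109 with BRM014 and vehicle. It was not called in the main fit, but edgeR called it with no filter (adjusted p = 0.00360) and with only the compared groups (adjusted p = 0.0331). Leaving out single libraries gave up to 2 higher and 1 lower.

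After 1 h of Dex no member was called (edgeR), against 0.606% of all genes; 2 had an unadjusted p under 0.05, and DESeq2 called 0. After 1 h of IFNg none was called either, against 0.514%; 1 higher and 3 lower had an unadjusted p under 0.05, and DESeq2 called 0.

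IFNg for 6 h moved fewer members. In the pretreatment experiment 2 rose and 1 fell, against 3.47% and 3.15% of all genes. In the panel 4 rose and 1 fell, against 7.11% and 4.75%. The sterol desaturase SC5D and HMGCS1 rose in both. SC5D went from 30.8 to 37.9 CPM in the panel vehicles to 42.5 and 47.1 with IFNg (0.40 ± 0.07, adjusted p = 1.02e-04), and from 39.3 and 43.8 to 53.0 and 51.7 CPM in the pretreatment experiment (0.33 ± 0.07, adjusted p = 0.00305). HMGCS1 rose by 0.21 ± 0.06 and 0.27 ± 0.08.

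STARD4, which Dex lowered, stood at 115 to 122 CPM in the panel vehicles and at 146 and 158 with IFNg (0.37 ± 0.04, adjusted p = 5.90e-08). INSIG1 also rose in the panel (0.16 ± 0.04), while FADS2 fell there (-0.17 ± 0.05) and FADS1 fell in the pretreatment experiment (-0.39 ± 0.11, adjusted p = 0.0316). In the pretreatment experiment these calls rest on single libraries: 0 were higher without DMSO and vehicle replicate 1, 5 without DMSO and IFNg replicate 2, and 0 were lower without DMSO and IFNg replicate 1. In the panel the fall of FADS2 was not called without either IFNg library, and 2 were lower without PBS replicate 2. There HMGCS1 was not called without IFNg replicate 2 (adjusted p = 0.520), nor INSIG1 without IFNg replicate 1 (adjusted p = 0.153). No member's response to IFNg was called different with BRM014 (edgeR), against 0.198% of all genes; 3 had an unadjusted p under 0.05, and DESeq2 called 0.

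The other panel stimuli left these genes close to the vehicles. No member was called (edgeR) with IL2, against 0.203% of all genes, with TNF, against 0.0190%, or with LPS, against 0%. Unadjusted p-values under 0.05 numbered 3 with IL2, 4 with TNF and 4 with LPS, all for higher levels, and DESeq2 called 0 in each. Between the vehicles, FASN was lower with DMSO than with PBS (-0.21 ± 0.05, adjusted p = 0.0448), the 1 member called, against 0.437% of all genes; it was not called without either DMSO library or PBS replicate 1, and 2 members were lower without PBS replicate 2.

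Dox, a DNA-damaging drug, has 1 library and no replicate check. Its values of 6 members lay above all 4 vehicle libraries and of 13 below, against 28.0% and 28.3% of all genes, and the median log2 ratio (CPM plus 1, against the vehicle mean) was -0.06, against -0.01 over all genes. STARD4 stood at 186 CPM, against 115 to 122 in the vehicles, and INSIG1 at 137 CPM, against 87.9 to 93.6; both are the highest values of these genes in any GM12878 library. TM7SF2 also had its highest value there, 22.5 CPM against 15.3 to 17.8. On the other side, FADS2 stood at 85.3 CPM against 110.4 to 125, SCD at 49.1 against 60.1 to 69.4, SQLE at 62.6 against 71.8 to 84.5, and FASN at 198 against 215 to 265. The late sterol steps lay on both sides: TM7SF2, NSDHL, HSD17B7 and SC5D were above all 4 vehicles, SQLE, LSS, CYP51A1 and DHCR7 were below them, and the other 3 were within.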

How the data were processed

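Expected counts (RSEM estimates per gene, not scaled), TPM and FPKM were deposited per library, per the file headers. Per the submitters' processing notes the authors used STAR, RSEM and hg38; versions and the use of strand in counting are not given in the sources used here. Per the labels' protocols, libraries were made from polyadenylated RNA with a stranded kit and read in pairs. Expected counts were rounded. Identifiers were named with GENCODE 44 (58252 of 58780 matched a symbol).

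Fits used edgeR 4.0.16 (R 4.3.3) with TMM, filterByExpr and the robust quasi-likelihood test, 2-sided: panel (15 libraries, 15775 genes), pretreatment (24, 15183), HepG2 (4, 13349), and HepG2 with the GM12878 vehicle libraries of 6 h (8, 15902). All groups of an experiment shared 1 estimate of the spread. SE was taken as |log2 fold change| divided by sqrt(F). Early and late steps were described by counts and medians. Levels between genes or lines use the deposited TPM, with FPKM as alternative. Replicate counts differed beyond sampling noise in every group of 2 (lowest chi-square per degree of freedom 2.52). Counting limits cover counting error only. The steps were tested on simulated data.

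The members and lists were chosen with earlier results of these data known. The text names all 30 members, SMARCA4 and SMARCA2, and up to 4 members of each other list with the smallest adjusted p. Markers, INSIG2, PAXIP1 and RBM33 were named as checks. Some genes of the pathway are not reported here. Alternatives were DESeq2 1.42.0 (test, and size factors in edgeR), no filter, a replicate block, only the compared groups, each library left out, DMSO or PBS alone, a pseudocount of 0.1 CPM for Dox, and FDFT1 counted as early.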

Additional observations from a re-analysis of the deposited data

Results flagged for a closer look

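For 14 of the 30 genes the effect of BRM014 in GM12878 differed between 6 h and 1 h. At 6 h 2 were higher and 12 lower, against 17.2% and 21.0% of all genes. The effect was taken over the vehicle, IFNg and Dex arms, and the difference itself was tested (edgeR, adjusted p under 0.05). The differences, as log2 values of 6 h minus 1 h, were LPIN1 -0.83, FADS2 -0.70, FADS1 -0.69, INSIG1 -0.60, FDFT1 -0.28, SREBF1 -0.28, MSMO1 -0.28, SCD -0.23, HMGCS1 -0.22, LSS -0.22, IDI1 -0.18, SREBF2 -0.15 and, upward, ACACA 0.32, TM7SF2 0.36. Both times share no library, and the arms within a time are separate libraries. SREBF1 lost this call under at least 1 alternative, and the other 13 kept it under all that were run.

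The effect of BRM014 differed between HepG2 at 24 h and GM12878 at 6 h for 20 of 29 genes with counts in both lines. The same kind of test called 17 lower and 3 higher, against 13.2% and 9.44% of all 15902 genes. As log2 values of HepG2 minus GM12878, the lower ones were MSMO1 -1.54, EBP -1.50, ACAT2 -1.22, FADS2 -1.20, HSD17B7 -1.15, MVK -1.14, SQLE -1.07, HMGCS1 -1.05, DHCR7 -0.92, SC5D -0.85, NSDHL -0.77, LSS -0.76, TM7SF2 -0.74, FDFT1 -0.64, CYP51A1 -0.56, SREBF2 -0.53, FDPS -0.52. The higher ones were STARD4 0.50, SREBF1 0.57, PMVK 0.74. FDPS, CYP51A1 and the 3 higher ones lost the call under at least 1 alternative, and the other 15 kept it under all that were run. Exposure time and line cannot be told apart in this comparison.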

How the results depend on the processing

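Of 240 counts and medians recomputed under alternatives that keep all libraries, 222 stayed within 1.5 times or 1 SD of the reported value and 18 moved. Of 7354 values of single members under all alternatives, 7137 kept their side of the threshold and 217 changed side. Among values called in the main fit or the alternative, 0 reversed direction. A change of sign where neither called the member was not counted. The cause of the changes was not tested. With no filter, 2 members were higher with BRM014 at 1 h (1 reported), 1 was higher for Dex by BRM014 (0 reported) and 1 lower with Dex at 1 h (0 reported). With only the compared groups, 1 was higher for Dex by BRM014, 1 lower with Dex at 1 h, 0 higher and 0 lower with IFNg at 6 h of pretreatment (2 and 1 reported), and 0 lower for DMSO against PBS (1 reported). With DESeq2, IFNg at 6 h of pretreatment gave 1 higher and 0 lower. With DMSO alone as control, IFNg in the panel gave 0 lower (1 reported) and IL2 gave 1 higher (0 reported). With FDFT1 counted as early, the early median was -0.57 in HepG2 (-0.33 reported) and 0.12 in GM12878 at 6 h (0.14 reported). With FPKM, the median log2 ratio of HepG2 to GM12878 was 0.43 (0.53 with TPM).

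Same-numbered replicates did not deviate together (correlations from -0.069 to 0.083 in the pretreatment experiment, from -0.053 to 0.044 in the panel and -0.094 in HepG2), so the numbers pair no samples. A fit with the replicate block gave 2 higher with BRM014 at 1 h, 1 lower with Dex at 1 h and 1 higher with IFNg at 6 h of pretreatment, and moved no other count of members by over 1.5 times.

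With each library left out in turn (a lone library left in a group is assumed to vary like the others), the number of members called ranged, higher then lower, as follows: 0 to 2 and 17 to 20 for BRM014 in HepG2 (1 and 19 with all libraries), 3 to 7 and 6 to 9 for GM12878 at 6 h (7 and 10), 9 to 13 and 11 to 12 over 3 arms (11 and 11), 2 to 7 and 11 to 13 for 6 h minus 1 h (2 and 12), and 0 to 3 and 16 to 19 for HepG2 minus GM12878 (3 and 17). Dex gave 2 to 3 and 3 to 5 after pretreatment (3 and 5) and 5 to 6 and 6 to 9 in the panel (6 and 7), and IFNg gave 0 to 5 and 0 to 1 (2 and 1) and 3 to 6 and 0 to 2 (4 and 1). Higher calls ranged from 0 to 2 for GM12878 at 1 h (1) and 3 to 5 over its 3 arms (4), 0 to 1 for vehicle over time (1), 0 to 2 for Dex by BRM014 (0) and 0 to 1 for IFNg by BRM014 (0). Lower calls ranged from 0 to 1 for Dex by BRM014 (0) and 0 to 2 for DMSO against PBS (1); the other counts of 0 stayed at 0.

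Leaving out DMSO and vehicle replicate 2 turned the late median in GM12878 at 6 h to -0.0047 (0.08 reported). The late median ranged up to 0.11 there and the early one from 0.090 to 0.16; in HepG2 they ranged from -0.83 to -0.69 and from -0.44 to -0.23.

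Over all genes, the number called moved by over 1.5 times from 30 to 84 (no filter), 50 (DESeq2) and 11 (only the compared groups) for IFNg by BRM014, from 92 to 163 (only the compared groups) for Dex at 1 h, from 1005 to 349 and from 78 to 128 (the same) for IFNg at 6 h and 1 h, and from 217 to 362 (no filter) and 75 (only the compared groups) for vehicle over time. It moved from 32 to 73 (no filter), 98 (DMSO alone) and 10 (PBS alone) for IL2, from 3 to 22, 38 and 0 (the same) and 5 (replicate block) for TNF, from 0 to 20 (no filter), 16 (replicate block), 2 (only the compared groups) and 35 (DMSO alone) for LPS, and from 69 to 132 (no filter) and 11 (only the compared groups) for DMSO against PBS. HepG2 is limited by its library of 3.06 M counts and by 2 libraries per group.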

Other observations

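In the pretreatment experiment, replicate 1 of DMSO with IFNg at 6 h held the highest value of the 24 libraries for 10 of the 30 genes, mostly of sterol synthesis. Against replicate 2 of its group, DHCR7 stood at 91.8 and 63.5 CPM and HMGCS1 at 88.8 and 69.7 CPM. LPIN1 went the other way, at 48.4 and 70.4 CPM. The cause was not tested, and the labels give no other difference between these libraries. Replicate 1 was the shallowest GM12878 library, at 12.9 M counts against 17.3 M for replicate 2. How many of all genes had their highest value there was not counted.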
